A study of Mus musculus with 4 samples.

Results

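The transcripts described here encode 9 proteins of the BACH, NRF2 and small MAF network: the repressors Bach1 and Bach2, the activators Nfe2l2 (NRF2) and Nfe2l1 (NRF1), the adaptor Keap1 with its ubiquitin ligase scaffold Cul3, and the small MAF partners Maff, Mafg and Mafk. They were chosen by symbol, and all 9 of 9 were found among the 27998 genes of the count matrices, each as a single entry. CD45-enriched cells of the tibialis anterior muscle were profiled by droplet single-cell RNA sequencing after cardiotoxin, a snake venom toxin that kills muscle fibres and so starts a round of regeneration, in male mice of 8 to 12 weeks. Each of the 4 groups was 1 library: control mice at 2 and 4 days post injury (dpi2 and dpi4), which per the study's methods were Bach1 fl/fl littermates, and Bach1-cKO mice at the same days, labelled KO, which were Bach1 fl/fl with Lyz2-Cre. Cre therefore acts in cells that use the Lyz2 promoter, and the floxed alleles are shared by both genotypes. For this assay the group size is given as n = 1, without saying whether that is 1 mouse or 1 library of pooled mice. With 1 library a group there was no test of a difference between groups: each ratio carries an exact 95% interval that covers counting error only, not the spread between mice.

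BACH1 and BACH2 are bZIP repressors of the CNC family, and NRF2 and NRF1 are bZIP activators of the same family. All of them bind DNA as dimers with a small MAF protein, which has no activation domain of its own, at antioxidant response elements and the longer MAF recognition elements. KEAP1 holds NRF2 in the cytoplasm and, with CUL3, has it degraded until electrophiles or oxidants intervene, whereas heme releases BACH1 from DNA and leads to its degradation. In macrophages that take up red cells and debris this switch governs heme breakdown by Hmox1, iron export by Slc40a1 and glutathione synthesis. Much of it runs through protein stability, which transcript counts do not show.

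The floxed exon is shown first because it sets what the counts can and cannot say about the knockout. In the annotation (GENCODE vM21, GRCm38, which is mm10), Bach1 lies on the plus strand at chr16:87698945-87733346. Exon 4, which the study describes as the floxed exon, spans chr16:87722402-87722608. It is 207 bases long and wholly coding, a length that divides by 3 with a remainder of 0, and it was read from the annotated transcript, plus strand, 5′ to 3′, in lower case throughout as no stretch of it was singled out.
Bach1 exon 4: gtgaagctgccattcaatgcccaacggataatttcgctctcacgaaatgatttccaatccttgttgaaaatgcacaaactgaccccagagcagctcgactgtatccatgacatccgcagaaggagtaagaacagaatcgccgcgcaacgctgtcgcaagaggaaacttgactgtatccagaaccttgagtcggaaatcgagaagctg
Its end lies 10738 bases of genome before the 3′ end of the gene. The last exon, exon 5, holds the remaining 432 coding bases and 3478 bases that are not coding. A 3′ library counts tags near that end, outside the deleted stretch, so the Bach1 count says nothing about whether exon 4 was removed.

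The promoters of the members were searched for the core of the antioxidant response element, TGACNNNGC on either strand, because this is the letter pattern at which these dimers bind. RefSeq promoter windows of 250 bases before to 50 after each start site (build GRCm38.p6) held it in 4071 of 32851 windows, or 12.4%, and in at least 1 window of 14.0% of 27025 genes. Among the members it was found in 4 of 9 genes: Nfe2l2, which encodes the activator itself, and all 3 small MAF genes. The matches stand in capitals below, with flanking bases in lower case, 5′ to 3′ along the strand of the gene.
Nfe2l2, minus strand, chr2:75704875-75704913, match starting 240 bases before the start site: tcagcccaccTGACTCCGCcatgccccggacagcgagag
Maff, plus strand, chr15:79346489-79346537, the most upstream of 3 annotated starts, 112 bases before it: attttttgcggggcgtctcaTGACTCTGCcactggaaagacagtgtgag
Mafg, minus strand, chr11:120633741-120633789, 222 bases before the start site: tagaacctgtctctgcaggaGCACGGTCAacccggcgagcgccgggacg
Mafk, plus strand, chr5:139791503-139791551, 13 bases before the start site: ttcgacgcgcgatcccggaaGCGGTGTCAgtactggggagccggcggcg
The Mafg and Mafk matches read in the reverse orientation. The window of Bach1, the single windows of Bach2, Keap1 and Cul3 and the 5 windows of Nfe2l1 did not contain these letters. The stricter TGACTCAGC, in 149 windows and 0.503% of genes, occurred in 0 of the 9, as did the AP-1 letters TGACTCA inside it (5.95% of genes). The cAMP response letters TGACGTCA, in 2.03% of genes, occurred 29 bases before the second start of Maff. The E-box letters CACGTG, in 8.09% of genes, occurred in Maff, Mafg and Mafk. A match is a run of letters, not a measured binding site.

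The 4 libraries held between 57010520 and 80228489 UMIs, and 17011 of 20500 barcodes were kept as cells. Lyz2, into which the Cre is inserted in Lyz2-Cre mice, was read as a check of the labels. Over all barcodes it stood at 9388 and 15845 CPM (UMIs of the gene per 1000000 UMIs) in the control libraries of dpi2 and dpi4, and at 17.5 and 21.6 in the KO libraries, low in both libraries labelled KO. By class, Lyz2 in the controls of dpi2 and dpi4 was at 8134 and 18211 in macrophages, 13084 and 11534 in monocytes, 1618 and 1644 in neutrophils, 1475 and 2765 in Cd209a dendritic cells and 234 to 671 in T and NK cells. In the KO Cd209a dendritic cells it was at 1.72 and 5.59. Bach1 over all barcodes stood at 189, 187, 207 and 217 CPM in control dpi2, KO dpi2, control dpi4 and KO dpi4. Pairs of libraries shared 1 to 11 kept barcodes. As a measure of free RNA, C1qa in T and NK cells stood at 1.91% to 4.68% of its macrophage level.

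Cells were clustered and named from fixed markers, and the UMIs of each class were summed within a library. All levels below are in CPM of that sum. Macrophages numbered 1998 in control dpi2, 1142 in KO dpi2, 3086 in control dpi4 and 2683 in KO dpi4. Monocytes numbered 2604, 949, 57 and 68, neutrophils 622, 789, 128 and 36, and Cd209a dendritic cells 196, 178, 175 and 200, in the same order. Clusters with muscle, endothelial and fibroblast markers were also present and are not described. A further cluster, led by Mirt1, Il1f9 and Irg1, had neutrophil markers as its best match but was shallow, and was left unnamed, with 97 cells in control dpi2 and 514 in KO dpi2. Averaged over its upper and lower side, the counting interval around a macrophage level reached at most 15.2% of the level from it, whereas among NK cells the median was 56.6%.

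Bach1, the heme-sensed repressor, was highest in monocytes among the named leukocyte classes of every library. In control dpi2 its level was 287 in monocytes (95% interval 280 to 293), 198 in neutrophils (176 to 222), 173 in Cd209a dendritic cells (157 to 190) and 124 in macrophages (121 to 128). The monocyte level stood apart from all others, while neutrophils and Cd209a dendritic cells overlapped. By dpi4 the control monocytes (322, interval 279 to 369) and Cd209a dendritic cells (311, interval 287 to 336) overlapped at the top, with macrophages at 215 (211 to 219) next and apart from both. In KO dpi2 monocytes (265) and neutrophils (258) overlapped, below the unnamed cluster at 308 (283 to 334). Control NK cells were lowest, at 24.7 in dpi2 and 12.9 in dpi4, and overlapped the T cells. With every cell thinned to 2000 UMIs, 21.8% of control dpi2 macrophages and 40.8% of control dpi2 monocytes held a Bach1 UMI, against 5.05% of T and NK cells. Without thinning, at medians of 17970 UMIs per cell in macrophages, 10029 in monocytes and 3950 in T and NK cells, the shares were 75.1%, 85.4% and 11.9%.

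In macrophages the Bach1 level was 124 in control and 147 in KO at dpi2, and 215 and 227 at dpi4. In monocytes it was 287 and 265 at dpi2, and 322 and 286 at dpi4. The macrophage ratios of KO over control were 1.19 at dpi2 (1.14 to 1.24) and 1.06 at dpi4 (1.03 to 1.09). The monocyte ratios were 0.92 (0.89 to 0.96) and 0.89 (0.72 to 1.10), so no ratio reached 1.5-fold. With both classes pooled the dpi2 log2 ratio was -0.07, on the other side of 0 from that of macrophages. As stated, these tags lie outside the floxed exon.

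Bach2, a repressor best known from B cells, followed another order. The 52 B cells of all libraries together held 50 Bach2 UMIs, a level of 202 (150 to 267), which was the highest of any cluster. Among classes counted in single libraries, Cd209a dendritic cells stood at 46.5, 40.6, 78.4 and 106 in control dpi2, KO dpi2, control dpi4 and KO dpi4, and NK cells at 61.9, 65.6, 41.8 and 28.8. NK cells led at dpi2 and Cd209a dendritic cells at dpi4, and in KO dpi4 alone the interval of the leading class was apart from the next. Macrophages held between 4.92 and 12.7, and neutrophils at most 1.98, with 0 UMIs at dpi4, which allows up to 8.07 in control and 28.2 in KO.

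Nfe2l2, the main activator of antioxidant genes, was highest in neutrophils. They stood at 668, 567, 710 and 498 in the order control dpi2, KO dpi2, control dpi4 and KO dpi4, and led in every library, though in KO dpi4, with 36 cells, the interval of 373 to 652 overlapped Cd209a dendritic cells and monocytes. Monocytes were at 394, 493, 519 and 404, and macrophages at 204, 258, 409 and 333. T and NK cells lay between 46.9 and 119. Nfe2l1, which drives proteasome genes when proteasome activity falls, was highest in Ccr7-expressing mature dendritic cells, at 227, 188, 188 and 219, apart from every other leukocyte class in all 4 libraries. Macrophages were at 72.2, 69.4, 48.3 and 50.9.

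The small MAF genes differed among themselves. Maff was highest in neutrophils of the named classes, at 158, 196, 213 and 197, with type 1 dendritic cells at 17.1 to 25.8. In KO dpi4 the neutrophil interval (122 to 302) overlapped that of Cd209a dendritic cells (114 to 145). Mafg was highest in macrophages and monocytes among the named leukocyte classes of the controls, where both overlapped (102 and 97.9 at dpi2, 64.9 and 65.9 at dpi4), and in Cd209a dendritic cells it was 38 to 53. Over the named leukocyte classes Mafk ranged from 8.09 in mature dendritic cells of control dpi4 to 68.7 in neutrophils of control dpi2. Keap1 was lowest in neutrophils, at 15.2, 8.1 and 16.1 in the first 3 libraries, with 0 UMIs in the 36 neutrophils of KO dpi4, a count that allows up to 28.2. In every library the neutrophil interval overlapped that of the next lowest class. Cul3 levels lay between 81.6 and 197 over all named leukocyte classes and libraries, and the leading class overlapped the next in all 4 libraries.

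**Figure D1:**
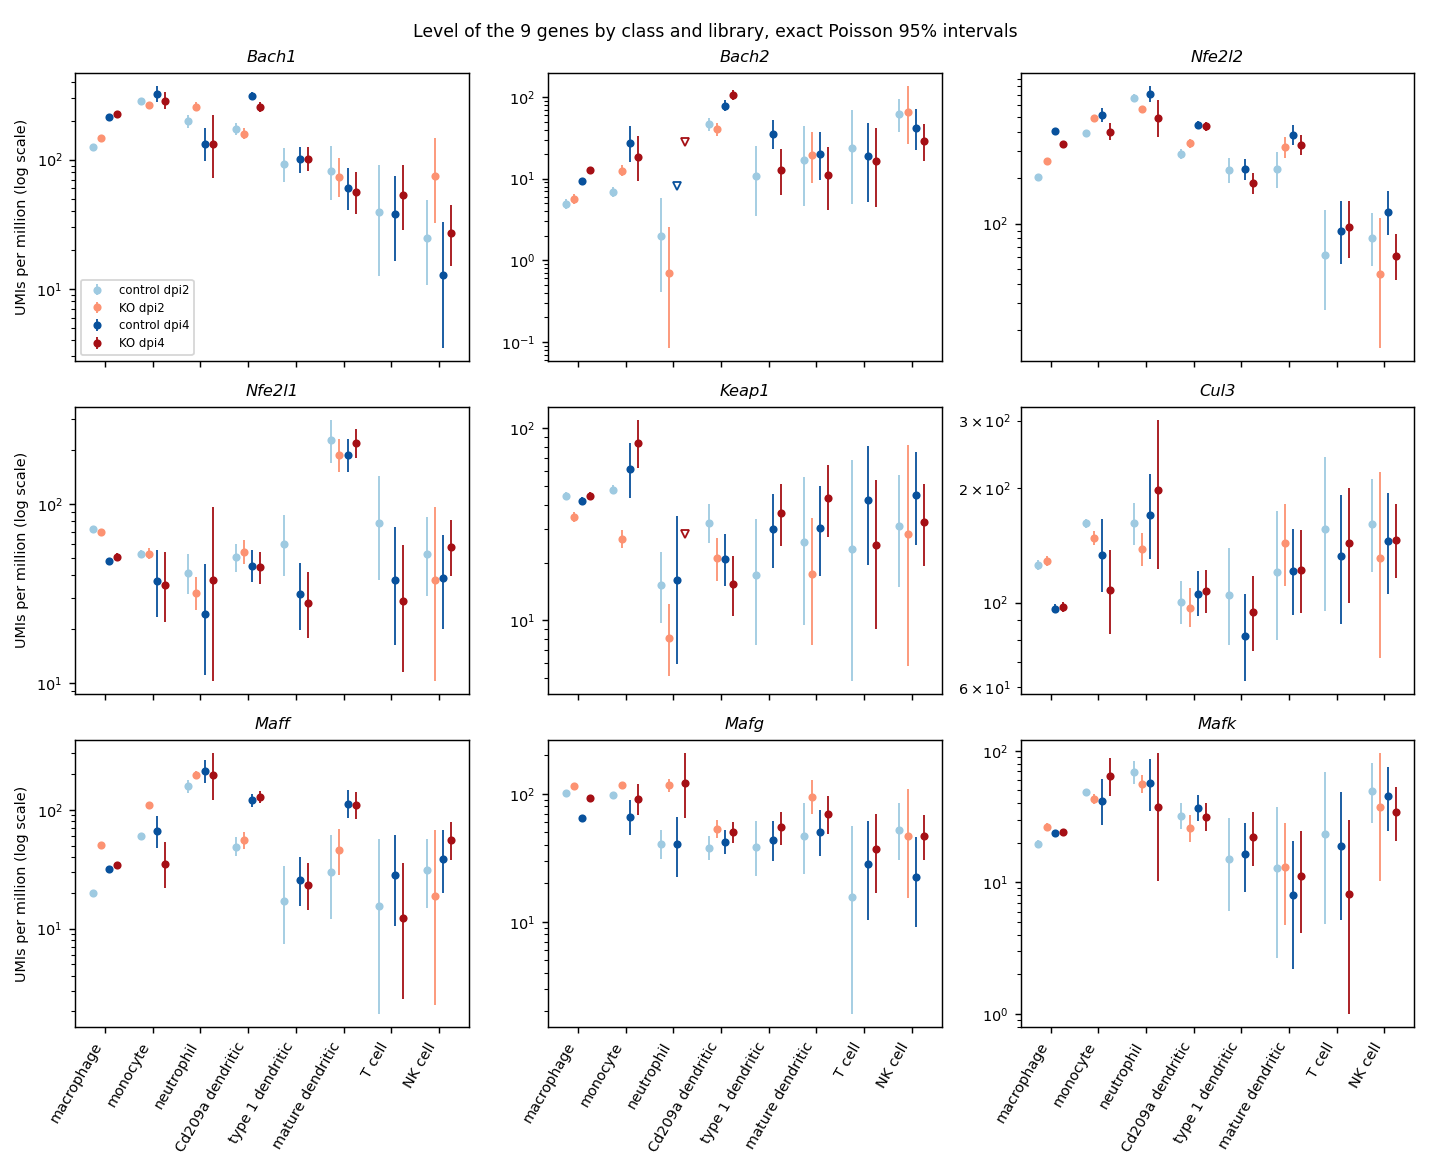
Level of each of the 9 genes (CPM, log scale) in 8 leukocyte classes and the 4 libraries, where the class holds at least 20 cells; bars are exact Poisson 95% intervals and open triangles mark the limit that a count of 0 allows. Bach1 is highest in monocytes and low in T and NK cells, Nfe2l1 stands out in mature dendritic cells, and Maff and Nfe2l2 are highest in neutrophils.

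The comparison of genotypes asks what the loss of BACH1 in myeloid cells does to the transcripts of its own network. The KO libraries also lacked nearly all Lyz2: in macrophages at dpi2 it was at 8134 in control and 13 in KO, and its neighbour Lyz1, also a lysozyme, at 16 and 488. No Cre is named for the controls, so the loss of BACH1 cannot be told apart here from that of Lyz2 or from the presence of Cre. A gene was counted as changed where its KO over control ratio was at least 1.5-fold either way, the interval left out 1 and the pair of libraries held at least 50 UMIs. In macrophages at dpi2, 1 of the 9 passed, Maff, while 11.2% of the 11128 genes tested did. In macrophages at dpi4, 0 of the 9 passed, and 7.25% of 11987 genes did. The median log2 ratio of the 9 was 0.19 at dpi2 and 0.08 at dpi4, against -0.02 and 0.02 over all genes. Read against these backgrounds, 1 of 9 and 0 of 9 were not shares above those of genes at large.

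Maff, a stress-inducible small MAF, was the member that moved most between genotypes in macrophages at dpi2. Its level was 19.8 in control dpi2, 50.3 in KO dpi2, 31.5 in control dpi4 and 34.5 in KO dpi4. Only KO dpi2 stood high, 2.54-fold over control dpi2 (2.33 to 2.78), while at dpi4 the ratio was 1.09 (1.02 to 1.17). The median macrophage held 17970 UMIs in control dpi2 and 25771 in KO dpi2. Within single clusters at dpi2, 2 of the 3 with enough cells also held 20 Maff UMIs and both intervals lay above 1, with ratios of 2.82 and of 2.27 in Cd163 and Gja1 macrophages (1.94 to 2.67). At dpi4 the interval lay above 1 in 4 of 8 clusters and below it in 1. The ratio was 1.83 in the Iigp1 and Ifit2 macrophages (1.43 to 2.35), an interferon-response cluster, and 0.73 in Ccl8 and C4b macrophages (0.55 to 0.96).

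Of 12 listed immediate-early and heat-shock genes, which cells also switch on during tissue digestion, 6 passed the rule in the same macrophages at dpi2, against 11.2% of all genes: 5 were higher (Junb, Egr1, Fosb, Ier3 and Zfp36) and 1 lower (Hspa1b). Junb was at 691 in control and 1510 in KO and Egr1 at 374 and 656, while Fos was at 1627 and 2092 and Atf3 at 519 and 500. At dpi4, 2 passed, against 7.25% of all genes, both of them higher, the heat-shock genes Hspa1a and Hspa1b. The summed neutrophil markers stood at 0.208% of their neutrophil level in control dpi2 macrophages and at 0.354% in KO dpi2, shares that would carry 0.328 and 0.695 CPM of Maff. These shares were reckoned from the named neutrophils and leave out the unnamed Mirt1 and Il1f9 cluster. The parts of neutrophil RNA and of the immediate-early genes in the Maff difference were not tested.

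In monocytes at dpi2, 3 of the 9 passed the rule, against 11.8% of 10012 genes. Maff was at 60.5 in control and 109 in KO (ratio 1.80, 1.68 to 1.93). Bach2 was at 6.9 in control and 12.5 in KO (1.81, 1.46 to 2.23), on 191 and 167 UMIs. Keap1, the adaptor that restrains NRF2, was at 47.9 in control and 26.5 in KO (0.55, 0.49 to 0.62). With monocytes and macrophages pooled, neither passed, at log2 ratios of 0.42 for Bach2 and -0.515 for Keap1. Nfe2l2 itself was at 394 and 493 (1.25, 1.21 to 1.29), below the 1.5-fold line, with 1.23 (1.18 to 1.29) in the Vcan and Hp cluster, 1.01 (0.93 to 1.10) in the Cxcl10 and Ly6c2 cluster and 0.97 (0.90 to 1.05) in the F10 and Ly6c2 cluster. The largest monocyte cluster differed between the genotypes: the Cxcl10 and Ly6c2 cluster held 1138 of the control cells and 117 of the KO cells, and the Vcan and Hp cluster 825 and 704.

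Within the Vcan and Hp monocytes Maff was at 37.8 in control and 113 in KO, a ratio of 2.97 (2.61 to 3.40). Within the Cxcl10 and Ly6c2 monocytes it was 1.64 (1.35 to 1.99), and within the F10 and Ly6c2 monocytes 1.11 (0.96 to 1.29). Bach2 was higher in the Vcan and Hp cluster by 2.40 (1.64 to 3.58) and in the F10 and Ly6c2 cluster by 1.92 (1.30 to 2.80), with 1.18 (0.56 to 2.24) in the third. Keap1 was lower within the clusters by less than over all monocytes: its ratios were 0.65 (0.54 to 0.79), 0.82 (0.65 to 1.02) and 0.78 (0.57 to 1.04) in the Vcan, Cxcl10 and F10 clusters. In control dpi2 alone its level was 62.6 in the Cxcl10 cluster, 38.2 in the F10 cluster and 32.9 in the Vcan cluster. In macrophages at dpi2 Keap1 was at 44.5 in control and 34.6 in KO (0.78, 0.72 to 0.84).

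At dpi4 only 57 control and 68 KO monocytes were kept. Of the 7 members with at least 50 UMIs, 1 passed the rule, against 10.1% of 3480 genes: Maff, at 65.9 in control and 35.3 in KO (0.54, 0.30 to 0.93), on 41 and 21 UMIs. The direction was opposite to dpi2, but with monocytes and macrophages pooled it turned to a log2 ratio of 0.11. Of the 12 immediate-early and heat-shock genes, 0 were higher and 3 lower in KO monocytes at dpi2 (Atf3, Hspa1a and Hspa1b), against 11.8% of genes that passed either way, with a median log2 ratio of -0.06, while Maff was higher. At dpi4 the same 3 were higher and 0 lower, against 10.1%, with a median of 0.27, while Maff was lower. Their part in the Maff values was not tested.

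In neutrophils at dpi2, 1 of the 7 members with enough UMIs passed, Mafg, against 27.3% of 5714 genes. Mafg was at 40.3 in control dpi2 (61 UMIs) and 117 in KO dpi2 (331 UMIs), a ratio of 2.89 (2.19 to 3.86). The median neutrophil gene lay at a log2 ratio of -0.31. Scaled by TMM, with a KO over control factor of -0.377 on the log2 scale that raises every ratio, Bach1 and Maff passed beside Mafg, as did 18.6% of all genes tested, and Mafg was at a log2 ratio of 1.91 in place of 1.53. At dpi4 the KO library held 36 neutrophils, below the 50 set for a ratio; Mafg was at 40.4 in the control (22.6 to 66.6) and 122 in the KO (65.1 to 209). The Mirt1 and Il1f9 cluster held the highest Mafg and Maff of all clusters in each dpi2 library, although for Mafg in the control its interval (139 to 245) overlapped that of the F10 and Ly6c2 monocytes (127 to 144). Within it at dpi2 Mafg was at 186 in control and 363 in KO (1.95, 1.47 to 2.64), Bach1 at 142 and 308 (2.16, 1.56 to 3.07) and Maff at 328 and 483 (1.47, 1.18 to 1.85).

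Mafg, a small MAF that NRF2 is known to induce, was on the higher side in KO macrophages at both times without reaching 1.5-fold. It was at 102 in control and 116 in KO at dpi2 (1.13, 1.08 to 1.18), and at 64.9 and 92.5 at dpi4 (1.43, 1.36 to 1.49). The make-up of the macrophages at dpi4 differed between genotypes: the H2-Aa and Cd74 cluster held 885 control and 388 KO cells. The Slc40a1 and Gdf15 cluster held 489 and 897. At dpi4 the interval of Mafg lay above 1 in 6 of 8 macrophage clusters, with ratios from 0.96 to 1.77 in the Iigp1 and Ifit2 cells. In the GENCODE vM21 annotation the last 124 bases of the Mafg gene overlap Sirt7 on the same strand. How tags there were counted was not examined.

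Nfe2l2 in macrophages took opposite sides at dpi2 and dpi4. It was at 204 in control and 258 in KO at dpi2 (1.27, 1.23 to 1.31), and at 409 and 333 at dpi4 (0.815, 0.799 to 0.832). The intervals left out 1 in both cases and neither ratio reached 1.5-fold. Ratios on opposite sides of 1 at the 2 times, with both intervals leaving out 1, were found for 1 of 9 members in macrophages, against 9.66% of 11054 genes, for 2 of 7 in monocytes (Nfe2l2 and Maff), against 8.39% of 3479, and for 0 of 9 in Cd209a dendritic cells, against 4.04% of 6430. At dpi2 the interval lay above 1 in 2 of 3 macrophage clusters, and the Slc40a1 and Apoe cells were at 0.74 (0.44 to 1.22). At dpi4 the interval lay below 1 in 7 of 8 macrophage clusters, the exception being the dividing Top2a and Birc5 cells at 1.05 (0.96 to 1.15). Bach2 at dpi4 was at 9.49 in control and 12.7 in KO macrophages (1.34, 1.19 to 1.51), and Mafk at dpi2 at 19.6 and 26.5 (1.35, 1.22 to 1.49), though with monocytes and macrophages pooled the log2 ratio of Mafk was -0.02. The macrophage ratios of Cul3 were 1.02 (0.98 to 1.07) and 1.01 (0.97 to 1.05), and those of Nfe2l1 were 0.962 (0.909 to 1.02) and 1.05 (0.998 to 1.11).

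Cd209a dendritic cells showed 1 member past the rule at dpi2, against 9.44% of 7088 genes, and 0 at dpi4, against 5.93% of 6624. The one was Keap1, at 32.1 in control and 21 in KO (0.65, 0.46 to 0.93), and it did not pass when the sums were scaled by TMM or DESeq2 factors. Maff, which moved most in macrophages at dpi2, was at 49 and 55.4 in these cells at that day (1.13, 0.89 to 1.45).

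**Figure D2:**
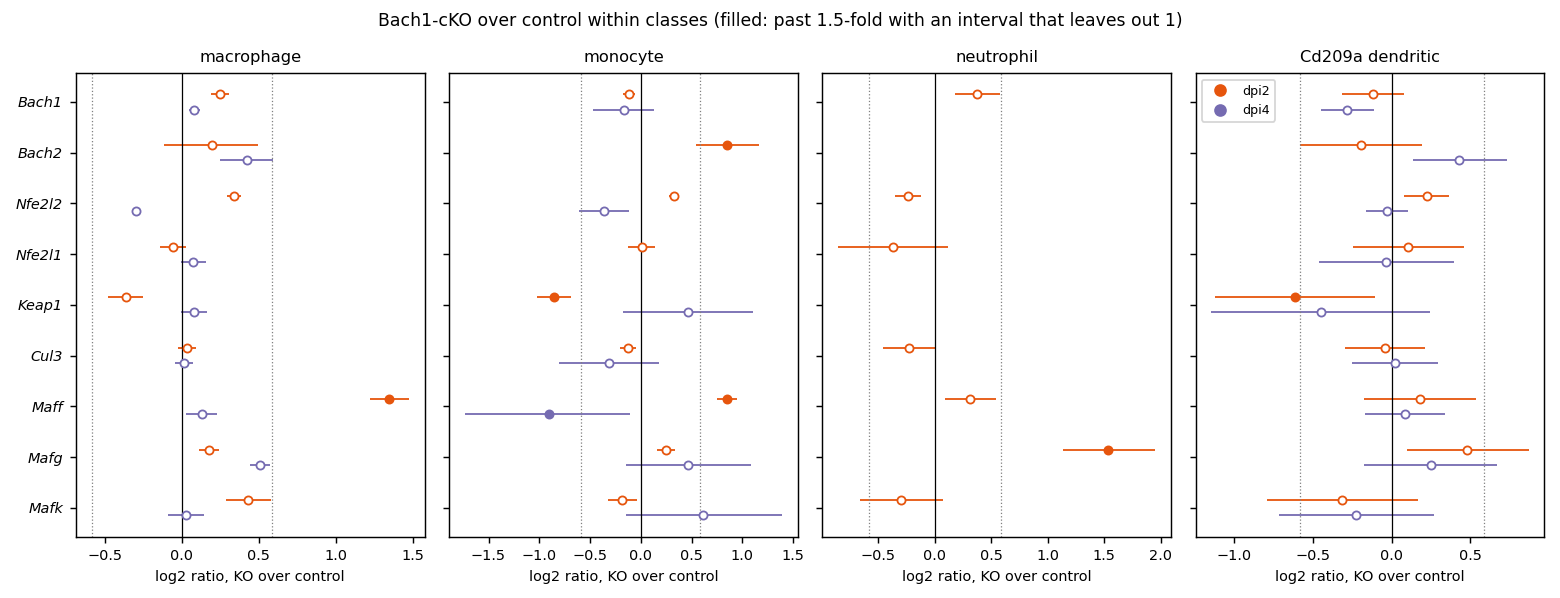
KO over control ratio (log2) of each gene in 4 classes at dpi2 (orange) and dpi4 (purple), with exact 95% counting intervals; filled points pass 1.5-fold (dotted lines) with an interval that leaves out 1, and genes under 50 UMIs are not drawn. Maff in macrophages and monocytes and Mafg in neutrophils lie to the right at dpi2, Keap1 in monocytes lies to the left, and Nfe2l2 in macrophages changes side between the times.

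**Figure D3:**
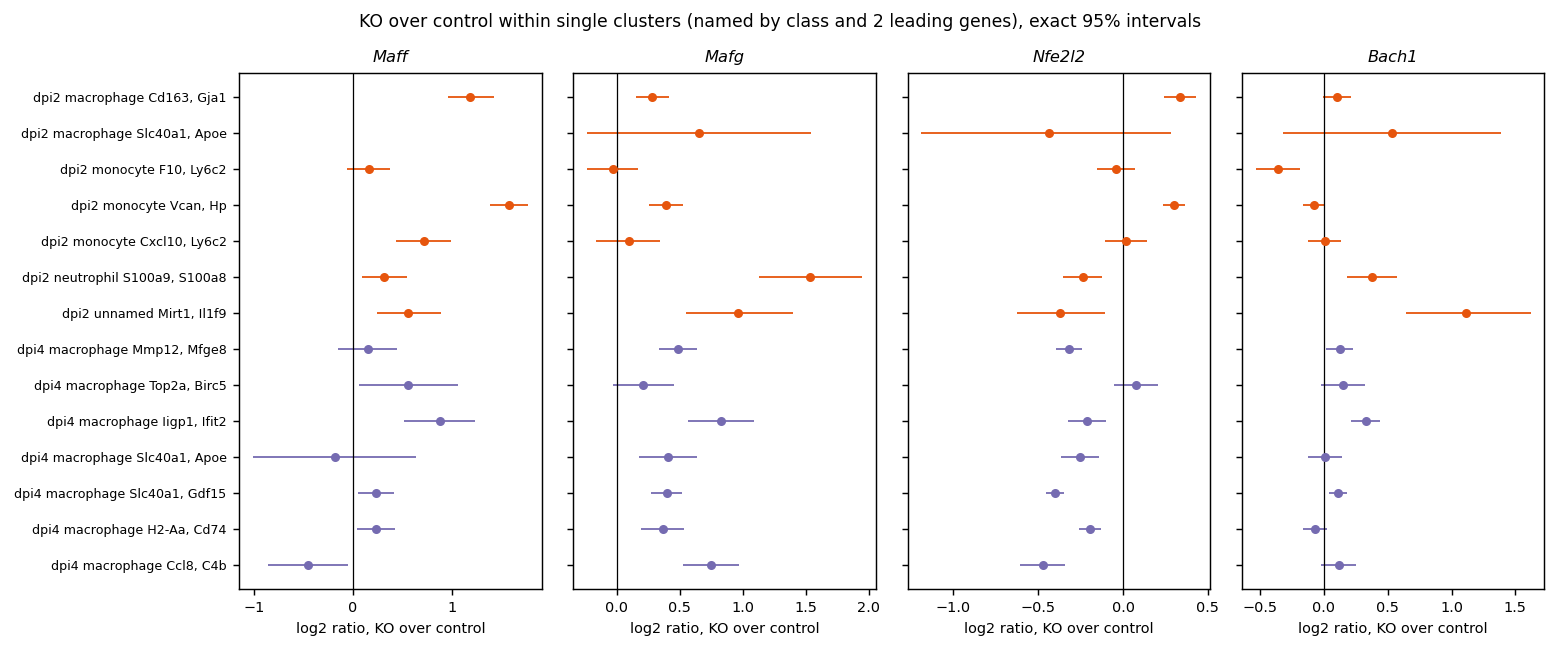
KO over control ratio (log2) of Maff, Mafg, Nfe2l2 and Bach1 within single clusters, named by class and 2 leading genes, at dpi2 (orange) and dpi4 (purple), with exact 95% counting intervals; a cluster needs 50 cells in both libraries and 20 UMIs of the gene, and 1 macrophage cluster is not drawn. Maff is higher in the Cd163 and Gja1 macrophages and in the Vcan monocytes at dpi2, and Nfe2l2 is lower in 6 of the 7 macrophage clusters drawn at dpi4.

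The comparison of days asks how the network differed between early and later macrophages, which lay mostly in different clusters: the H2-Aa and Cd74 cluster held 25 control macrophages at dpi2 and 885 at dpi4. From dpi2 to dpi4 in control macrophages 5 of the 9 passed the rule, against 35.3% of 11778 genes. Bach1 rose from 124 to 215 (1.73, 1.67 to 1.79), Bach2 from 4.92 to 9.49 (1.93, 1.63 to 2.29), Nfe2l2 from 204 to 409 (2.01, 1.96 to 2.06) and Maff from 19.8 to 31.5 (1.59, 1.46 to 1.74). Mafg fell from 102 to 64.9 (0.64, 0.61 to 0.66). The activator Nfe2l2 and both repressors were higher together at dpi4. Maff did not pass with finer clusters or with each library clustered by itself. With monocytes and macrophages pooled, Bach2 and Mafg still passed, while Bach1 (log2 ratio 0.17) and Nfe2l2 (0.53) did not and Maff was lower at dpi4.

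In KO macrophages 2 of the 9 passed, against 32.0% of 11476 genes. Bach1 rose from 147 to 227 (1.54, 1.49 to 1.60) and Bach2 from 5.63 to 12.7 (2.26, 1.90 to 2.69). With monocytes and macrophages pooled Bach1 did not pass here either (log2 ratio 0.32). Nfe2l2 went from 258 to 333 (1.29, 1.26 to 1.33), and Maff from 50.3 to 34.5 (0.69, 0.64 to 0.73), short of the rule and opposite in direction to the control. Cul3 was lower at dpi4 in both genotypes, at 0.77 (0.74 to 0.80) in control and 0.76 (0.73 to 0.79) in KO. Nfe2l1 was also lower in both, at 0.67 (0.63 to 0.71) in control, just inside the 1.5-fold line, and 0.73 (0.69 to 0.78) in KO. The control value passed under 6 of 14 alternatives and the KO value under 0. The mitochondrial share of macrophage UMIs was 3.4% and 3.68% at dpi2 and 4.75% and 4.87% at dpi4 in control and KO, and its part in the changes with time was not tested.

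The rise of Bach1 was present within clusters of control macrophages that spanned both days, with ratios from 1.27 to 1.89 in 3 clusters and every interval above 1. In the KO it was 0.87 (0.77 to 0.99) in 1 cluster and 1.31 (0.88 to 2.04) in the Slc40a1 and Apoe cells, and in both the rise over all KO macrophages was not present beyond counting error. The rise of Bach2 had no interval above 1 in any of these clusters, with ratios from 0.77 to 2.25 in 3 control clusters, 1 of which held a single Bach2 UMI at dpi2, and of 0.60 and 0.86 in 2 KO clusters. Nfe2l2 was higher at dpi4 in all 3 control clusters (1.27 to 1.52), while in the KO it was 1.72 in the Slc40a1 and Apoe cells and 0.76 in the other cluster, with intervals on opposite sides of 1. Maff in the control had ratios of 0.52, 0.74 and 1.54, of which the interval of the last alone left out 1, and in the KO 0.18 and 0.46, both intervals below 1.

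Among single macrophage clusters of control dpi4, Bach1 ran from 135 in the Top2a and Birc5 cells to 294 in the Iigp1 and Ifit2 cells, with 273 in the Slc40a1 and Gdf15 cells. Maff ran from 4.67 in the Slc40a1 and Apoe cells to 52.2 in the H2-Aa and Cd74 cells. In monocytes of control dpi2, Bach1 ran from 223 in the F10 cluster through 288 in the Vcan cluster to 324 in the Cxcl10 cluster, the intervals being apart.

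Cd209a dendritic cells, a single cluster at both days, shared part of the pattern. In the control 5 of 9 passed, against 24.1% of 6748 genes: Bach1 (1.80, 1.58 to 2.04), Bach2 (1.69, 1.31 to 2.17), Nfe2l2 (1.54, 1.39 to 1.70) and Maff (2.47, 1.98 to 3.11) rose and Keap1 fell (0.65, 0.44 to 0.96). In the KO 3 of 9 passed, against 20.2% of 7064 genes: Bach1 (1.61, 1.42 to 1.82), Bach2 (2.60, 2.07 to 3.28) and Maff (2.32, 1.90 to 2.83) rose. Maff rose in these cells in both genotypes. Over all macrophages it rose in the control and was lower at dpi4 in the KO, a contrast that did not hold throughout the single clusters given above. Of the 12 immediate-early and heat-shock genes, 5 were higher and 2 lower at dpi4 in control macrophages (median log2 ratio 0.40), against 35.3% of genes that passed either way, and 0 passed in KO macrophages (-0.01), against 32.0%. In Cd209a dendritic cells 3 were higher and 2 lower in the control (0.08), against 24.1%, and 6 higher and 0 lower in the KO (0.64), against 20.2%. Their part in the Maff changes with time was not tested. In these dendritic cells Maff in the control and Bach2 and Maff in the KO passed under each of 13 alternatives, with lowest log2 ratios of 0.73 for Maff in the control (a minimum of 200 genes per cell) in place of 1.31, and, in the KO, 0.63 for Bach2 (without doublet removal) in place of 1.38 and 0.89 for Maff in place of 1.21. Bach1 and Bach2 in the control did not pass without doublet removal, with a minimum of 200 genes per cell or with coarser or finer clusters, and passed under 7 and 6 of 13. Bach1 in the KO passed under 8 of 13 (lowest log2 ratio 0.47) and Keap1 in the control under 8 of 12.

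The other classes followed different courses with time. In control neutrophils 1 of the 7 members with enough UMIs passed, against 30.2% of 4308 genes: Bach1 fell from 198 at dpi2 to 132 at dpi4 (0.66, 0.48 to 0.90), opposite to its rise in macrophages, and passed under 9 of 14 alternatives. In control monocytes 1 of 9 passed, against 14.1% of 9586 genes: Bach2 rose from 6.9 to 27.3 (3.96, 2.26 to 6.51), on 17 UMIs at dpi4. In KO monocytes 2 of 9 passed, against 17.8% of 8626 genes: Keap1 rose from 26.5 to 84.1 (3.18, 2.31 to 4.28) and Maff fell from 109 to 35.3 (0.32, 0.20 to 0.50). With monocytes and macrophages pooled, the log2 ratio of Bach2 was 0.75 in place of 1.99, that of Keap1 0.48, short of the rule, in place of 1.67, and that of Maff -0.98 in place of -1.63. With each library clustered by itself that of Bach2 was 1.10. Bach1 in monocytes had ratios of 1.12 (0.97 to 1.29) in control and 1.08 (0.92 to 1.26) in KO.

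**Figure D4:**
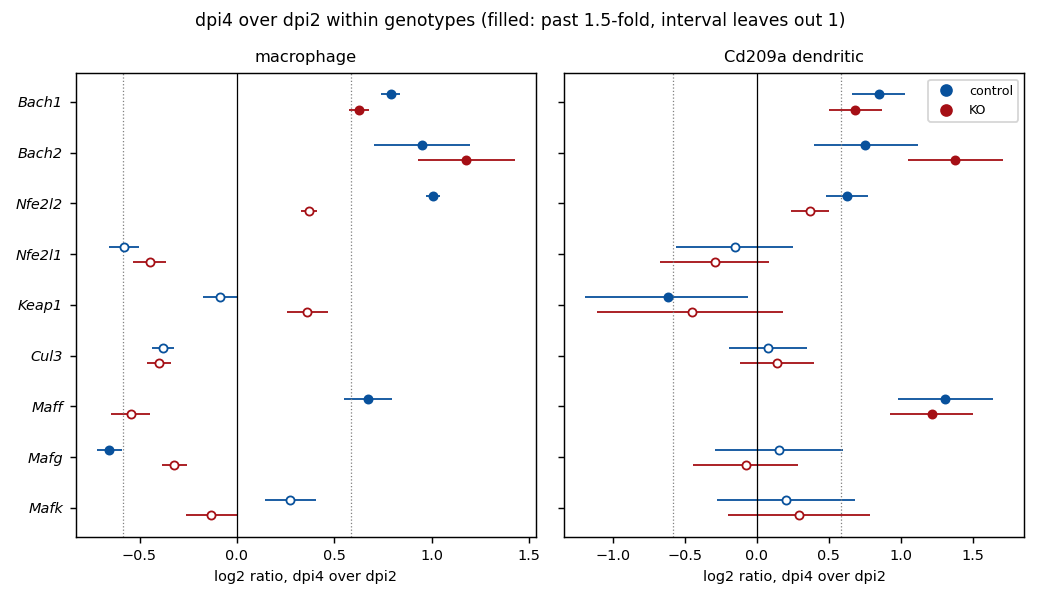
Ratio of dpi4 over dpi2 (log2) of each gene in macrophages and Cd209a dendritic cells of control (blue) and KO (red) libraries, with exact 95% counting intervals; filled points pass 1.5-fold (dotted lines) with an interval that leaves out 1. Bach1 and Bach2 lie to the right in both classes and genotypes, and Maff in macrophages lies right of 0 in the control and left of it in the KO.

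The genes downstream of the network gave a scale for these values. Of 23 heme, iron and redox genes that BACH1 or NRF2 are known to control, 15 were higher and 0 lower past the rule in KO macrophages at dpi2, against 5.3% of genes at large that were higher, and 14 were higher and 0 lower at dpi4, against 3.19%. The median log2 ratio was 0.93 at dpi2 and 0.69 at dpi4. Hmox1, the heme oxygenase, was at 675 in control and 10231 in KO at dpi2 (15.17, 14.98 to 15.36), and at 487 and 7258 at dpi4. Slc40a1, the iron exporter, was at 3.48 and 86.6 at dpi2 and at 71.4 and 771 at dpi4. Ftl1, a ferritin light chain, was at 17569 and 17690 at dpi2, and Nqo1, a quinone reductase, held 42 and 53 UMIs in all. In Cd209a dendritic cells 2 of the 19 targets with enough UMIs were higher and 0 lower at dpi2, against 9.44% of genes that passed either way (median log2 ratio 0.06). At dpi4 2 were higher and 1 lower, against 5.93% (median -0.0055). In monocytes and neutrophils at dpi2 12 of 21 and 17 of 20 were higher and 0 lower, against 11.8% and 27.3%. Of these targets 17 had a promoter window and 7 held the TGACNNNGC letters, against 14.0% of genes at large. The 7 were G6pdx, Gclm, Me1, Pgd, Prdx1, Srxn1 and Txnrd1, and Hmox1 and Slc40a1 were not among them.

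Of 13 factors that set the stability of BACH1, NRF2 and NRF1, Sqstm1, the p62 receptor that draws KEAP1 into autophagy and is itself an NRF2 target, was the sole one past the rule at dpi2, at 217 in control and 418 in KO (1.92, 1.87 to 1.98), against 11.2% of genes at large. At dpi4 0 of 13 passed, against 7.25%, when Sqstm1 was at 300 and 433. Fbxo22, a ligase subunit for BACH1, was at 41.3 and 52.3 at dpi2 and at 28.1 and 39.1 at dpi4. Rbx1, the RING partner of cullins, was at 418 and 361 at dpi2, and Cul1 at 81.1 and 84. The median log2 ratio of the list was 0.11 at dpi2 and 0.12 at dpi4.

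The 31 proteasome genes, targets of NRF1, did not pass in either direction between genotypes in macrophages, against 11.2% and 7.25% of genes at large, with median log2 ratios of -0.14 at dpi2 and -0.0041 at dpi4. Psmb6 was at 350 in control and 268 in KO at dpi2 and Psmb1 at 270 and 231, while Psmc1 was at 106 and 112 and Psma5 at 150 and 163. With time, however, 25 of 31 fell in control macrophages, against 17.8% of genes at large that were lower, and 20 of 31 in KO macrophages, against 14.9%. The medians were -0.79 and -0.67 on the log2 scale, beside -0.07 and -0.04 over all genes. In Cd209a dendritic cells 27 of 31 fell in the control, against 13.9% of genes at large that were lower, and 9 of 31 in the KO, against 9.9%. Nfe2l1 in those cells had ratios of 0.90 (0.68 to 1.19) and 0.82 (0.63 to 1.06), beside the 0.67 and 0.73 of macrophages. In control neutrophils 10 were higher and 0 lower among the 27 of 31 with enough UMIs, against 19.8% of genes at large that were higher. Their median was 0.51, beside 0.20 over all genes, and TMM factors lower every ratio of this comparison by 0.405 on the log2 scale. In monocytes 4 of 31 fell in the control, against 5.31%, and 2 of 31 in the KO, against 7.21%. Of the other CNC and MAF genes, Nfe2 held 21 and 16 UMIs and Nfe2l3 9 and 9 UMIs in control and KO at dpi2. Maf, a large MAF factor, was at 614 in control and 864 in KO at dpi2 and at 614 and 793 at dpi4, both under 1.5-fold.

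**Figure D5:**
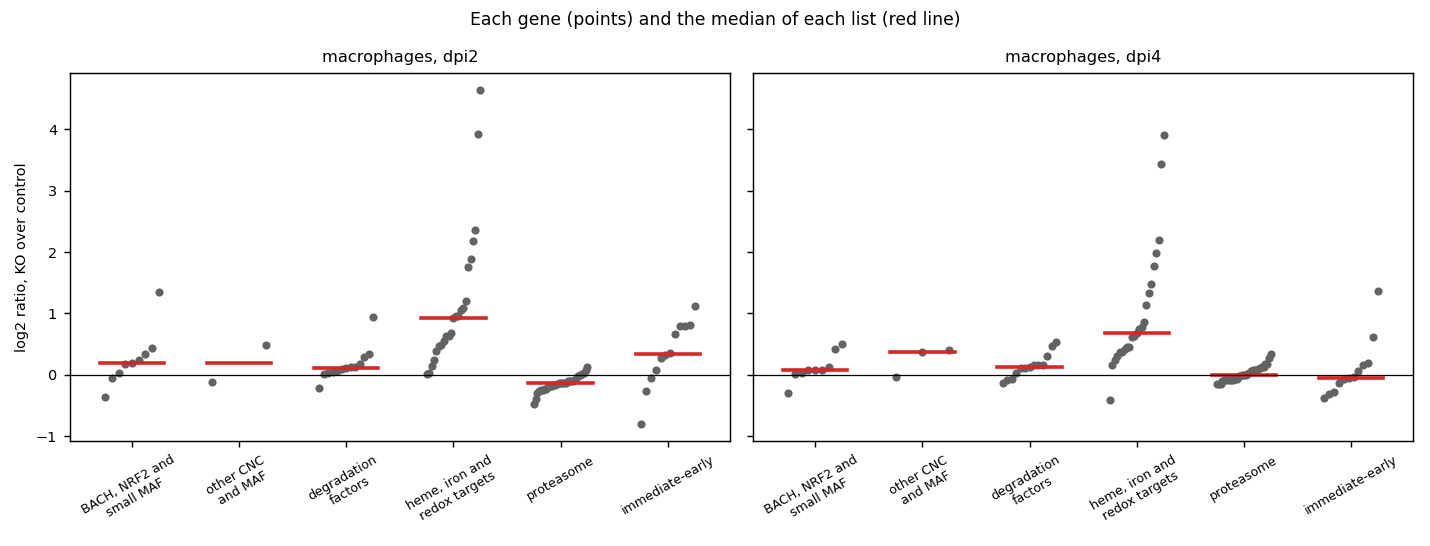
KO over control ratio (log2) of every measured gene (points) in macrophages at dpi2 and dpi4, for the 9 members and 5 lists, with the median of each list as a red line. The heme, iron and redox targets spread upward to a log2 ratio of 4.64, while the proteasome genes and, apart from Maff and Sqstm1 at dpi2, the members and the degradation factors lie nearer 0.

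The members were also compared by the shape of their level over 20 class and library sums of at least 50 cells, on the scale of log2(CPM + 1), among 7562 genes with a mean of at least 10. These sums share libraries and classes, so the correlations are a description. The closest genes to Bach1 were Zfand5 (r = 0.95), Nrros (0.94) and Il6ra (0.93), and those to Nfe2l2 were Pfkfb4, Ptafr and Zfp608 (0.94 each). Bach1 and Nfe2l2 had the highest correlation of any pair of members, at 0.85, followed by Nfe2l2 with Maff at 0.67. The lowest was Keap1 with Maff, at -0.59. Bach2 was closest to Galnt11 (0.90), Rps9 (0.89) and Nsa2 (0.89), and Nfe2l1 to Tmem19 (0.84), Gatsl2 (0.83) and Tango2 (0.82). Keap1 was closest to Sfmbt1 (0.86), Aida (0.85) and Lgals3bp (0.84), and Cul3 to Fzd5 (0.84), Mob4 (0.83) and Eif5 (0.82). For the small MAF genes the nearest were Tnrc18 (0.90), Relt (0.87) and Mcemp1 (0.85) for Maff, Tfec (0.89), Fam63a (0.85) and Abcc1 (0.84) for Mafg, and Fbxo38 (0.89), Fam49b (0.88) and Ccl4 (0.86) for Mafk.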

How the data were processed

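Per the labels, the authors made the matrices with Cell Ranger 6.1.2 on mm10. Each deposited matrix holds raw UMI counts per gene and cell barcode, not normalized. The labels name the v2 chemistry of the 3′ kit and the study's methods v3.1, which could not be settled. All 4 libraries were used, and 0 columns of other samples were present.

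Barcodes with at least 500 genes and under 10% mitochondrial UMIs were kept, and doublets were taken as the highest Scrublet scores at 0.8% per 1000 cells (289, 115, 150 and 100 removed in control dpi2, KO dpi2, control dpi4 and KO dpi4). Counts were log-normalized for 2000 variable genes, from which the members, listed genes, Lyz1 and Lyz2 were kept out, reduced to 30 components and clustered by Leiden at resolution 1 (scanpy 1.11.5). Clusters were named from fixed marker lists. Counts were summed per class and library; levels have exact Poisson intervals, ratios exact conditional binomial intervals and shares exact Clopper-Pearson intervals, all at 95%. UMIs are counts of molecules and cells of a library are not replicates. Shares were thinned to 2000 UMIs per cell, leaving out shallower cells. The interval and size rule were run on simulated Poisson counts. Such counts hold no spread between mice, cells or libraries, so that run covers counting error only. TMM (edgeR 4.0.16) and DESeq2 1.42.0 size factors were alternatives. The members and lists were chosen with earlier results of these data known. Named list genes were the 2 highest and 2 lowest of each list by mean log2 ratio in macrophages. Other genes given by name in a list were chosen after their values were seen.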

Additional observations from a re-analysis of the deposited data

Results flagged for a closer look

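Of the 9 genes in macrophages, monocytes and Cd209a dendritic cells, 3 combinations had KO over control ratios at dpi2 and dpi4 on opposite sides of 1, with both counting intervals leaving out 1, as had 9.66%, 8.39% and 4.04% of all genes tested in these classes. By class these were 1 of the 9 tested in macrophages, 2 of the 7 in monocytes and 0 of the 9 in Cd209a dendritic cells. Nfe2l2 in macrophages had log2 ratios of 0.34 at dpi2 and -0.30 at dpi4, a difference of 0.64 (0.58 to 0.69). Nfe2l2 in monocytes had 0.32 and -0.36, a difference of 0.69 (0.44 to 0.93), while within single monocyte clusters at dpi2 its interval lay above 1 in 1 of 3. Maff in monocytes had 0.85 and -0.90, a difference of 1.75 (0.98 to 2.52); with monocytes and macrophages pooled its dpi4 value was 0.11, on the same side as dpi2. The difference was not tested between mice, since each group is 1 library, and the dpi4 monocytes number 57 and 68.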

How the results depend on the processing

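Each choice was changed alone. Maff in macrophages at dpi2 and Mafg in neutrophils at dpi2 passed the size rule under 14 of 14 alternatives, at log2 ratios of 0.88 to 1.43 and 1.15 to 1.91. With monocytes and macrophages pooled, 2 of the values that passed changed sign: Maff from dpi2 to dpi4 in control macrophages (log2 -0.21) and Maff between genotypes in monocytes at dpi4 (0.11). In macrophages at dpi2, 4 members short of the rule changed sign too: Bach1 (-0.07), Nfe2l1 (0.01), Cul3 (-0.06) and Mafk (-0.02). Pooling also gave 2 members from dpi2 to dpi4 in control macrophages (Bach2 and Mafg; 35.1% of all genes tested), 1 in monocytes at dpi2 (Maff; 11.1%) and 0 at dpi4 (7.13%), and moved the dpi2 list medians to 0.0087 for other CNC and MAF genes, 0.78 for targets and 0.12 for immediate-early genes. At 2-fold, 1 member passed with time in control macrophages (Nfe2l2) and 1 in KO (Bach2), where 15.8% and 13.7% of all genes tested passed, and 0 passed in monocytes at dpi2 or at dpi4, where 4.51% and 2.9% did. With 20 UMIs, 2 passed in neutrophils (Keap1 and Mafg, beside 25.6% of all genes) and the median of other CNC and MAF genes at dpi2 was -0.0865; with 200, 0 passed in monocytes at dpi4, beside 8.01% of all genes. In neutrophils 3 passed with TMM or DESeq2 factors (Bach1, Maff and Mafg), beside 18.6% of all genes with either, and 3 without doublet removal (Keap1, Maff and Mafg), beside 17.9%. Adding the unnamed cluster to the neutrophils, an alternative chosen after seeing the data, gave 2 (Maff and Mafg), beside 30.2%. As a mean over cells, 1 passed in macrophages at dpi4 (Mafg, beside 8.48%) and 2 in monocytes at dpi4 (Maff and Mafg, beside 12.3%). With each library clustered by itself, 2 passed in macrophages at dpi4 (Bach2 and Maff, beside 7.7%) and 2 in monocytes at dpi4 (Nfe2l2 and Maff, beside 12.2%), and the dpi4 medians were 0.51 for other CNC and MAF genes and 0.23 for immediate-early genes. In the main setting the dpi2 medians were 0.19 for other CNC and MAF genes, over 2 genes with enough UMIs, 0.93 for targets and 0.345 for immediate-early genes. The dpi4 medians were 0.37 for other CNC and MAF genes and -0.04 for immediate-early genes. The cause of these moves was not tested. For monocytes at dpi4, 6 alternatives left under 50 cells and gave no value. Few UMIs limit the dpi4 monocytes (41 and 21 of Maff). No paired analysis was possible because each group is 1 library.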
